A study of Mus musculus with 14 samples.

Results

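Keratin genes were followed in epidermal cells of 15-week-old mice with and without the histone methyltransferase G9a. Members were all genes whose symbol in the platform annotation is Krt followed by a number and at most 1 letter, which left out the keratin-associated protein genes and Krtdap. The rule found 41 of the 17097 genes measured, on 50 of the 45141 probe sets. The groups were bulge cells of G9a cKO mice (n = 4 arrays), bulge cells of G9a WT mice (n = 3), interfollicular epidermis (IFE) cells of G9a cKO mice (n = 4) and IFE cells of G9a WT mice (n = 3), all from homeostatic epidermis. Hair follicle stem cells reside in the bulge, and the IFE is the epidermis between follicles. The labels name neither the promoter or Cre line behind the conditional knockout (cKO), nor the strain, the way the cells were separated, or whether each array came from its own animal.

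Keratins are the intermediate filament proteins of epithelial cells. A type I and a type II keratin pair to form the filament, and the pair in use changes with cell type: Krt5 and Krt14 in basal keratinocytes, Krt1 and Krt10 once the cells leave the basal layer, Krt6 and Krt16 in wounded or hyperproliferative epidermis, and other sets in the inner root sheath and the hair shaft. G9a, encoded by Ehmt2, writes methyl marks on histone H3 lysine 9 that go with silent chromatin.

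The mouse keratin genes lie in a cluster of type I genes on chromosome 11 and a cluster of type II genes, with the type I gene Krt18 at its edge, on chromosome 15. Of 27 keratin genes annotated in the first, 20 were measured, and of 26 in the second, 21 were measured. Krt17, Krt9, Krt24 and Krt76 are among those not analysed here. RefSeq windows around a transcription start (GRCm38.p6), with 250 bases before and 50 after it, matched 26 of the 41 genes, Krt13 with a pair of windows. The 250 bases before the start are shown for 5 keratins, 5′ to 3′, because these genes carry large differences between groups or the only decrease that passed the test on loss of G9a: Krt10 and Krt77 of the suprabasal layers, Krt79 of the upper follicle, Krt75 of the companion layer and Krt26 of the inner root sheath. Capitals mark TATAAA, the core of the TATA box.
Krt10, chr11:99389365-99389614, minus strand: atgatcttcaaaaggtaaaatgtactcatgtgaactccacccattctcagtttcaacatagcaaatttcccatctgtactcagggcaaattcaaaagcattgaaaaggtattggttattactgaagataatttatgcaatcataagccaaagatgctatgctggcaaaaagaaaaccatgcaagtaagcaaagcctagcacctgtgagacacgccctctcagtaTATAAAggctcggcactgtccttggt
Krt77, chr15:101869706-101869955, minus strand: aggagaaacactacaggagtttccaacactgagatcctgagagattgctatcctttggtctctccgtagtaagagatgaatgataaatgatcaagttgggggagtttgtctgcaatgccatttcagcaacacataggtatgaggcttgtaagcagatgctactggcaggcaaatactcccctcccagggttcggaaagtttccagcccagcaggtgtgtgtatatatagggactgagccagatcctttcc
Krt79, chr15:101940325-101940574, minus strand: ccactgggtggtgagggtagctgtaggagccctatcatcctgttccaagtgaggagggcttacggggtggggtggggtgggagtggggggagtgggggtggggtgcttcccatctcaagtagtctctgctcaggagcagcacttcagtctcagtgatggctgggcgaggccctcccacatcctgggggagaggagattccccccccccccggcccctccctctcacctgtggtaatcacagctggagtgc
Krt75, chr15:101573905-101574154, minus strand: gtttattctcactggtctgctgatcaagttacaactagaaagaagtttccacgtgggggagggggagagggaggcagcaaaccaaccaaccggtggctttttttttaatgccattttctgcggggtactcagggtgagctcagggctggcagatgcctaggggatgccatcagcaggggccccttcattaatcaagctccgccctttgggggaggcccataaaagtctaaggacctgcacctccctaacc
Krt26, chr11:99337966-99338215, minus strand: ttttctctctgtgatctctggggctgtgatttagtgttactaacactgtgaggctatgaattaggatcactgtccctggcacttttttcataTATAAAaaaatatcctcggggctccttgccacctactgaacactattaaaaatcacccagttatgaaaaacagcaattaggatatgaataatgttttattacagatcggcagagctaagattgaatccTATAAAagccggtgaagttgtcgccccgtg
TATAAA was searched on both strands and began 26 bases before the start in Krt10, and its nearer copy 30 bases before the start in Krt26. It occurred in 14 of 27 keratin windows and in 13.6% of 32851 windows of the same 300 bases over all genes. The letters TGANTCA, the core bound by AP-1, occurred in 2 keratin windows, both of Krt13 (7.81% of all windows), and GCCNNNGGC, the core bound by AP-2, in 3 (16.6%). Neither stood in the 5 windows shown, and no match of these motifs overlapped another there. A match or its absence describes letters only.

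All values below are deposited log2 signals, on which a difference of 1 is a doubling, and they compare 1 probe set between samples but not different genes with each other. Array medians lay between 5.76 and 5.84. A median over all values of 5.79 was not exceeded on any array by 14 keratins, among them Krt2, Krt20, Krt26, Krt35 and Krt86, so their small differences were measured near the bottom of the range. At the other end, the highest value of any gene on any array was 12.97, and only 4 genes had a mean above that of Krt5 and 14 above that of Krt14, so this basal pair was read near the top of the range. As a check of the labels, a probe set of Ehmt2 averaged 5.95 ± 0.07 in bulge cKO and 9.63 ± 0.10 in bulge WT cells (SD, n = 4 and 3), and 6.01 ± 0.06 in IFE cKO and 9.67 ± 0.10 in IFE WT cells. Another Ehmt2 probe set, whose place in the gene is not given here, averaged 7.94 ± 0.07 in bulge cKO and 7.93 ± 0.10 in bulge WT cells.

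**Figure D1:**
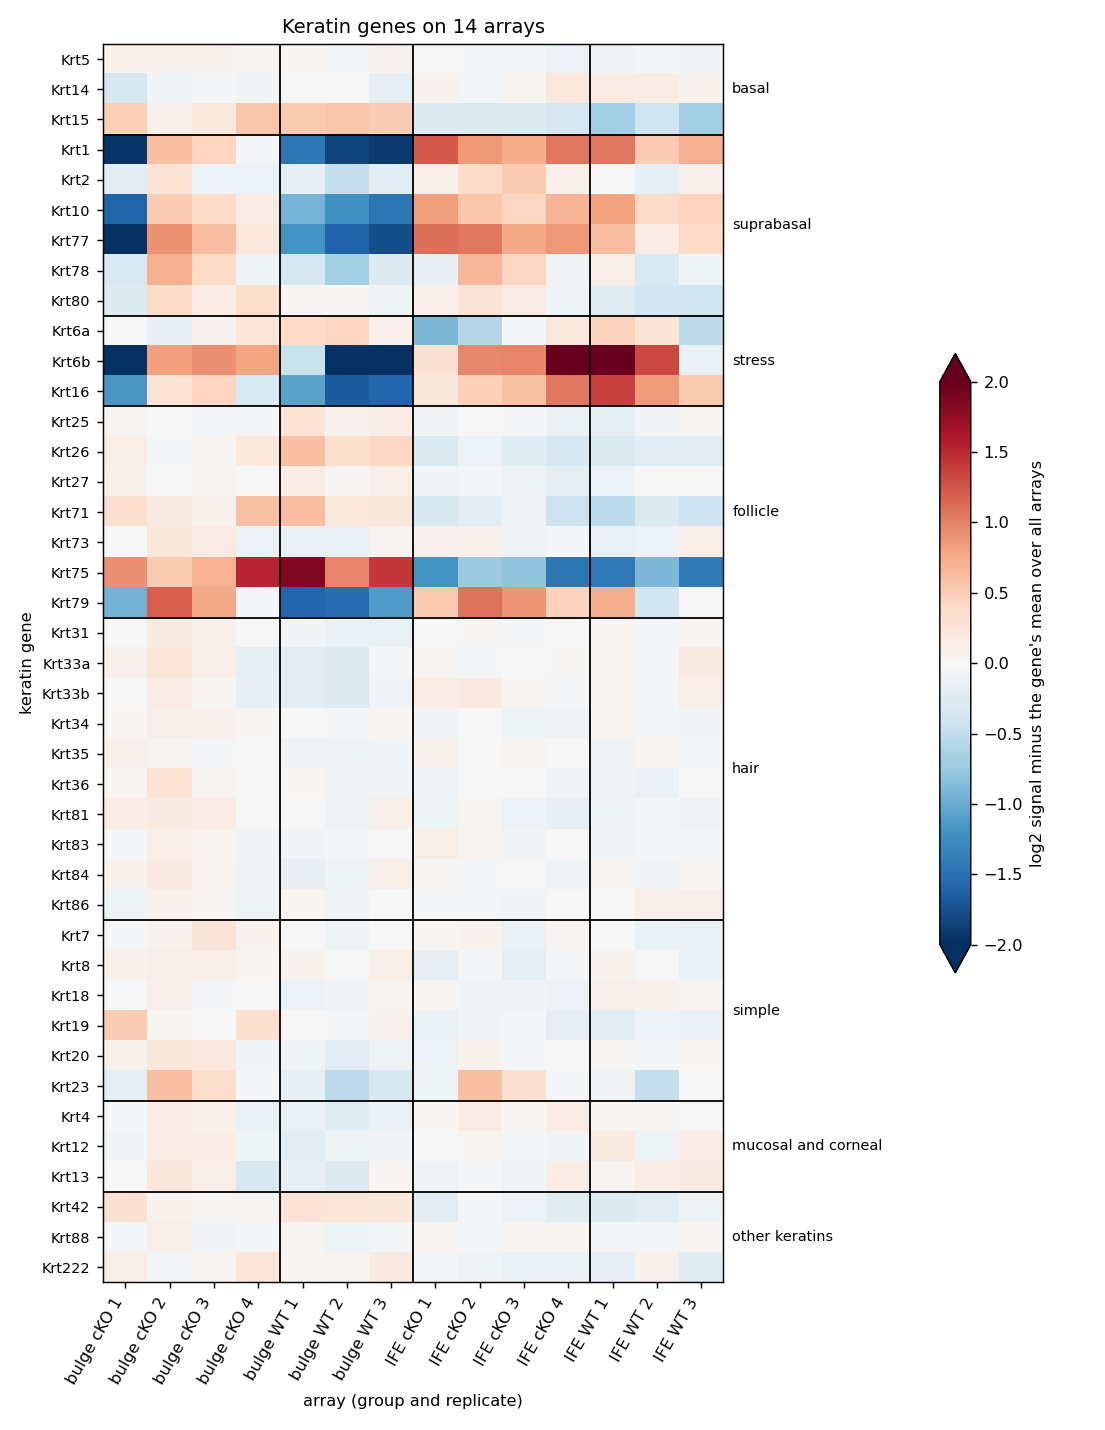
Log2 signal of 41 keratin genes (rows, by class) on 14 arrays (columns, by group), each as the difference from that gene's mean over all arrays; colours stop at 2 in either direction. Krt1, Krt10 and Krt77 are low on the bulge WT arrays and on bulge cKO replicate 1, and higher on the other 3 bulge cKO arrays and on all IFE arrays.

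In bulge cells without G9a, 3 of 41 keratins passed an adjusted p under 0.05 (limma, Benjamini-Hochberg over 17097 genes), where 3.84% of all genes did. Those that rose were Krt20 and Krt31 (1.98% of all genes rose), and the one that fell was Krt26 (1.85% fell). All 3 are dim probe sets, with means below the median of all values. At an unadjusted p under 0.05 there were 15 keratins (25.7% of all genes). The keratins with large differences between the group means, among them Krt1, Krt77, Krt79, Krt16 and Krt6b, did not pass, and their 4 bulge cKO arrays were far apart: replicate 1 lay near the WT arrays and replicates 2, 3 and 4 well above them. All bulge cKO arrays lay above all bulge WT arrays for 4 keratins (Krt79, Krt31, Krt35 and Krt20; 10.5% of all genes) and below them for 2 (Krt25 and Krt26; 8.05%). The median difference was 0.12 over the 41 keratins and 0.01 over all genes tested. Positive differences numbered 31 of 41 for the keratins and 9190 of 17097 over all genes.

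Of the 3 basal keratins, 0 passed in limma in the bulge, on probe sets near the top of the range, so a small difference does not show that levels were alike. Krt5, the type II partner of the basal pair, read 12.71, 12.72, 12.71 and 12.70 in bulge cKO replicates 1 to 4 and 12.69, 12.62 and 12.71 in bulge WT replicates 1 to 3. The difference was 0.04, with a 95% interval of −0.05 to 0.12. Krt14, its type I partner, read 12.03, 12.30, 12.33 and 12.31 in bulge cKO cells and 12.35, 12.35 and 12.18 in bulge WT cells. Its difference of −0.05 had an interval of −0.22 to 0.12, and a second probe set of Krt14 gave −0.04. Krt15, a type I keratin of basal cells that is strong in the bulge, read 12.10, 11.73, 11.83 and 12.18 in bulge cKO cells and 12.14, 12.17 and 12.14 in bulge WT cells. Replicates 1, 2 and 3 were below every WT array, replicates 2 and 3 the furthest, and replicate 4 was just above them. The difference of −0.19 did not pass (adjusted p = 0.251).

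Among the suprabasal keratins, 0 of 6 passed in limma, 4 had an unadjusted p under 0.05, and the median difference was 0.83. Over all genes 3.84% passed and 25.7% had an unadjusted p under 0.05. Krt1, Krt10 and Krt77 were above every WT array on 3 of the 4 bulge cKO arrays. Krt1, the type II keratin that cells switch on as they leave the basal layer, read 9.36, 11.93, 11.75 and 11.31 in bulge cKO replicates 1 to 4 and 9.87, 9.47 and 9.41 in bulge WT replicates 1 to 3. Replicate 1 was below every WT array and the other 3 were above every one. Krt10, the type I partner of Krt1, read 9.50, 11.63, 11.50 and 11.28 in bulge cKO cells and 10.18, 9.91 and 9.67 in bulge WT cells. Krt77, another type II keratin related to Krt1, read 8.69, 11.65, 11.38 and 10.98 in bulge cKO cells and 9.57, 9.15 and 8.99 in bulge WT cells. The same array was again the low one in both genes. Differences were 1.50 for Krt1 (SE 0.47, adjusted p = 0.0848), 1.44 for Krt77 (SE 0.53, adjusted p = 0.123) and 1.06 for Krt10 (SE 0.40, adjusted p = 0.127). Krt78, Krt2 and Krt80 had differences of 0.59, 0.25 and 0.17.

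Of the 3 stress keratins, 0 passed in limma. Krt16, the type I keratin induced on wounding, read 8.94, 10.38, 10.54 and 9.80 in bulge cKO cells and 9.04, 8.44 and 8.53 in bulge WT cells. Krt6b, a type II keratin induced with it, read 5.73, 10.21, 10.31 and 10.18 in bulge cKO cells and 8.94, 6.61 and 6.12 in bulge WT cells. Replicate 1 was the lowest Krt6b signal of all 14 arrays, while the other 3 cKO arrays lay between 10.18 and 10.31. Krt16 differed by 1.24 (adjusted p = 0.0642) and Krt6b by 1.88 with a 95% interval of −0.46 to 4.23 (adjusted p = 0.285). Krt6a, the close relative of Krt6b that is also present in the companion layer of follicles, read 11.54, 11.36, 11.60 and 11.78 in bulge cKO cells and 11.93, 11.96 and 11.63 in bulge WT cells. Its groups overlapped, the difference was −0.27, and its 2 other probe sets gave −0.29 and −0.18.

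**Figure D2:**
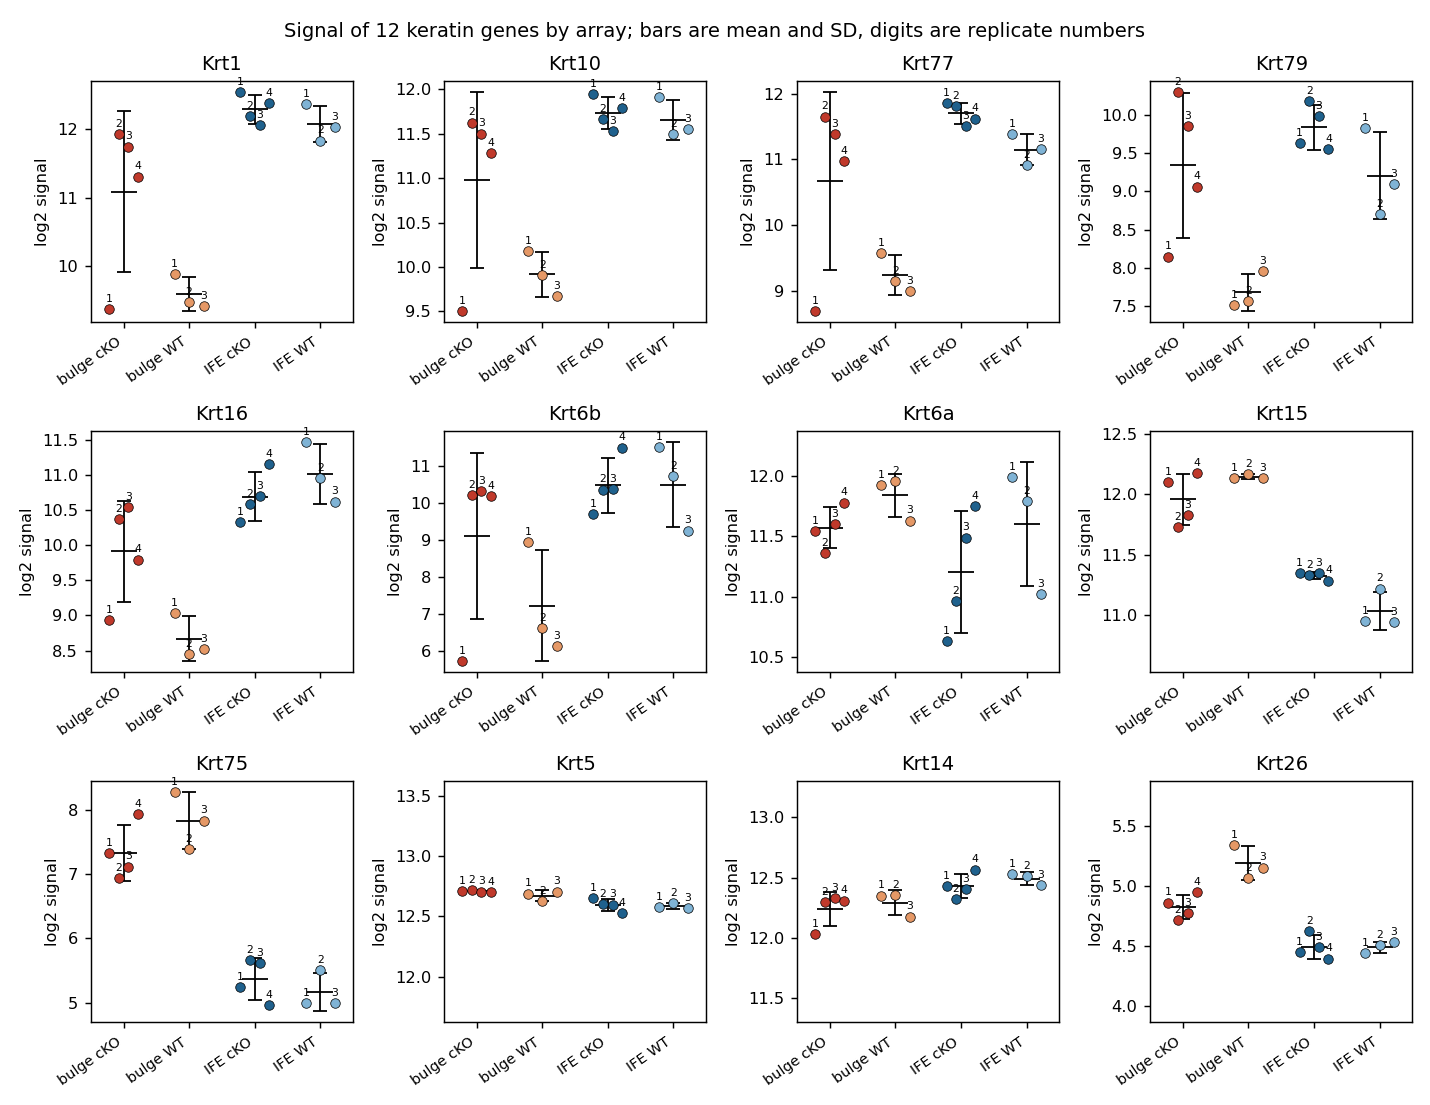
Log2 signal of 12 keratin genes on every array, by group, with group mean and SD; digits are replicate numbers and each panel has its own axis. In Krt1, Krt10, Krt77, Krt16 and Krt6b the bulge cKO replicate 1 sits with the bulge WT arrays, and replicates 2, 3 and 4 sit above them.

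Follicle keratins held the one decrease that passed. Krt26, an inner root sheath keratin, read 4.86, 4.71, 4.77 and 4.95 in bulge cKO cells and 5.34, 5.07 and 5.15 in bulge WT cells. All 4 cKO arrays were below all 3 WT arrays, at signals under the median of all values, and the difference was −0.36 (SE 0.08, adjusted p = 0.0274). The call was lost in 6 of 23 other settings, among them the fit of only the groups compared. Its neighbour on chromosome 11 and fellow inner root sheath keratin Krt25 also had groups that did not overlap, with a difference of −0.17 that did not pass (adjusted p = 0.115). Krt75, the companion layer keratin, read 7.33, 6.94, 7.11 and 7.93 in bulge cKO cells and 8.27, 7.39 and 7.83 in bulge WT cells, and its difference of −0.50 did not pass (adjusted p = 0.253). Krt79, which marks cells of the upper follicle and sebaceous duct in mice, had the largest difference of its class. It read 8.15, 10.30, 9.85 and 9.06 in bulge cKO cells and 7.51, 7.57 and 7.96 in bulge WT cells, so that all 4 cKO arrays were above every WT array. The difference of 1.66 (SE 0.42) corresponds to 3.16-fold and had an adjusted p of 0.0504, just above the threshold; it passed in 6 of 24 other settings.

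Hair shaft and simple epithelial keratins gave the increases that passed, both small and at low signal. Krt31, a type I keratin of the hair cortex, read 5.72, 5.90, 5.82 and 5.73 in bulge cKO cells and 5.65, 5.58 and 5.57 in bulge WT cells. Krt20, a simple epithelial keratin that in skin marks Merkel cells, read 5.32, 5.46, 5.42 and 5.18 in bulge cKO cells and 5.12, 5.01 and 5.12 in bulge WT cells. No cKO array of either gene overlapped the WT arrays, with differences of 0.19 (SE 0.05, adjusted p = 0.0494) for Krt31 and 0.26 (SE 0.07, adjusted p = 0.0476) for Krt20. Neither call was stable: of 23 other settings, that of Krt31 was lost in 19 and that of Krt20 in 18, both after centring each array on its median, with the replicate block and when any 1 of the IFE arrays was left out. The Merkel cell markers Atoh1, Isl1, Piezo2, Sox2 and Chga had a mean signal of 5.18 to 5.29 over the bulge cKO arrays and 5.17 to 5.23 over the bulge WT arrays. The 10 hair keratins ranged from −0.02 to 0.22 and the 6 simple keratins from 0.02 to 0.52, the highest being Krt23 (0.52, adjusted p = 0.149). The 3 mucosal and corneal keratins (Krt4, Krt12 and Krt13) lay between 0.14 and 0.19, and the 3 outside any class (Krt42, Krt88 and Krt222) between −0.13 and 0.02.

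Counts of keratins in the bulge depended on single arrays. Above the highest bulge WT array lay 12, 29, 25 and 17 of 41 keratins in bulge cKO replicates 1, 2, 3 and 4, and below the lowest lay 12, 9, 7 and 7. The same counts over all genes are not given here, so these cannot be read as particular to keratins. Without bulge cKO replicate 1, 8 keratins passed (5.77% of all genes): Krt1 (2.08), Krt10 (1.55), Krt77 (2.10), Krt6b (3.01), Krt16 (1.57), Krt79 (2.06) and Krt31 (0.21) were higher and Krt26 (−0.37) lower. Without replicate 4, 7 passed (14.9% of all genes): Krt16, Krt20, Krt26, Krt31, Krt33a, Krt4 and Krt79. In limma 0 keratins passed without bulge cKO replicate 2 (1.24% of all genes), without replicate 3 (1.08%) or without bulge WT replicate 1 (0.678%), and 1 (Krt26) passed without any other single array. Shares of all genes for those other fits are not given here. With replicates 2 and 3 both left out, 1 keratin passed (0.678% of all genes): Krt19, a keratin of simple epithelia and of bulge cells, at 0.41 (adjusted p = 0.0242), which is named because its value was seen.

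**Figure D3:**
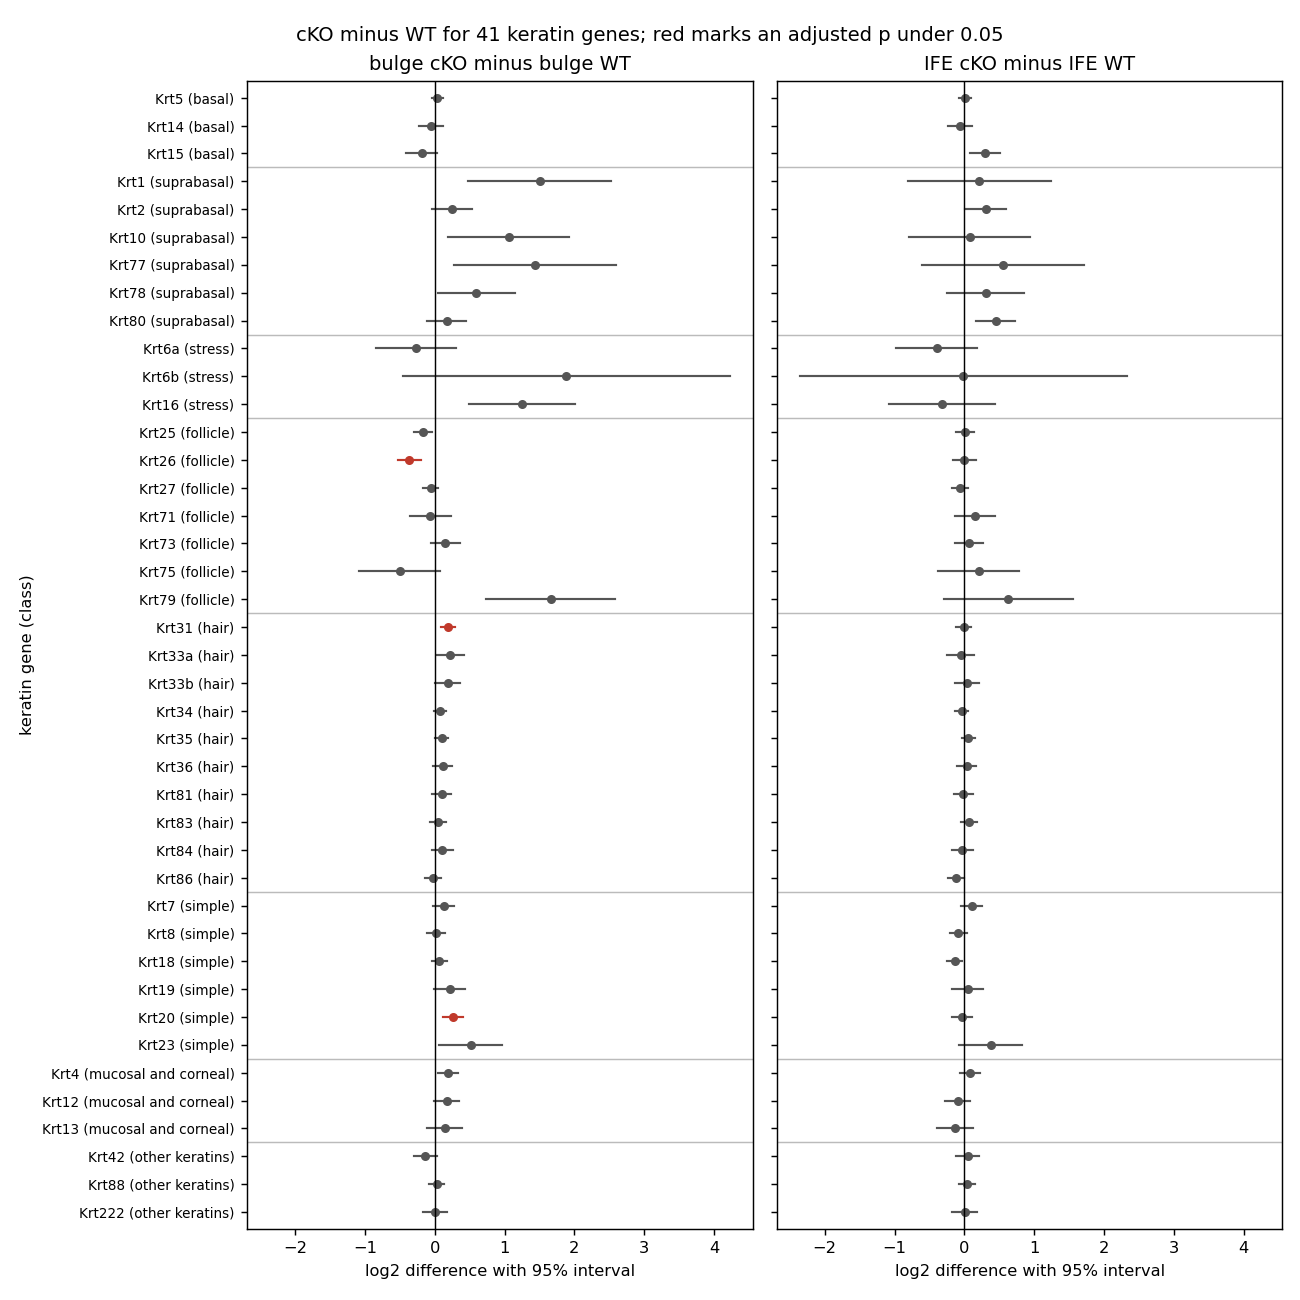
Log2 difference, cKO minus WT, with its 95% interval from limma for 41 keratin genes by class, in bulge cells (left) and IFE cells (right). Intervals are widest for Krt6b, Krt1, Krt77, Krt10, Krt79 and Krt16; red marks the 3 keratins with an adjusted p under 0.05, all in the bulge.

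Markers of several other cells and states also varied over the same arrays, not all in the same pattern. The 13 measured differentiation markers that are not keratins (of 15 listed) had a mean signal of 7.87, 9.28, 9.06 and 8.65 in bulge cKO replicates 1 to 4 and 7.90, 7.32 and 7.74 in bulge WT replicates 1 to 3. The 6 suprabasal keratins had means of 8.08, 9.71, 9.46 and 9.23 in bulge cKO cells and 8.47, 8.18 and 8.20 in bulge WT cells. In both lists replicate 1 stood at or just below the WT level and replicate 2 was highest. Markers of interfollicular cells (Ly6d, Dsg1a and Il33, 3 of 4 listed) had means of 6.13, 8.71, 8.59 and 7.66 in bulge cKO cells and 6.38, 5.79 and 6.20 in bulge WT cells. Their range over the IFE arrays was 9.56 to 10.18 in cKO and 9.72 to 10.37 in WT cells. Dsg1a is also among the 13 differentiation markers, so these lists share a gene and are not independent. The 8 bulge markers had means of 10.05, 9.24, 9.41 and 10.23 in bulge cKO cells and 10.49, 10.41 and 10.29 in bulge WT cells, lowest in replicates 2 and 3. The 4 measured T cell markers (of 5) averaged 5.54, 6.79, 6.92 and 6.42 in bulge cKO cells and 5.60, 5.22 and 5.39 in bulge WT cells. The 5 Langerhans cell markers averaged 7.57, 8.37, 8.12 and 7.81 in bulge cKO cells and 6.97, 6.90 and 7.13 in bulge WT cells. In this list replicate 1 was also above every WT array. Melanocyte and fibroblast markers lay between 5.26 and 5.45 and between 5.10 and 5.52 over the bulge cKO arrays, and between 5.16 and 5.38 and between 4.98 and 5.18 over the bulge WT arrays. Sebaceous markers lay between 6.53 and 7.19 in bulge cKO and between 6.44 and 6.60 in bulge WT cells. The part of these cells in the keratin differences was not tested, and in bulk RNA more cells of a type and more RNA per cell cannot be told apart.

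**Figure D4:**
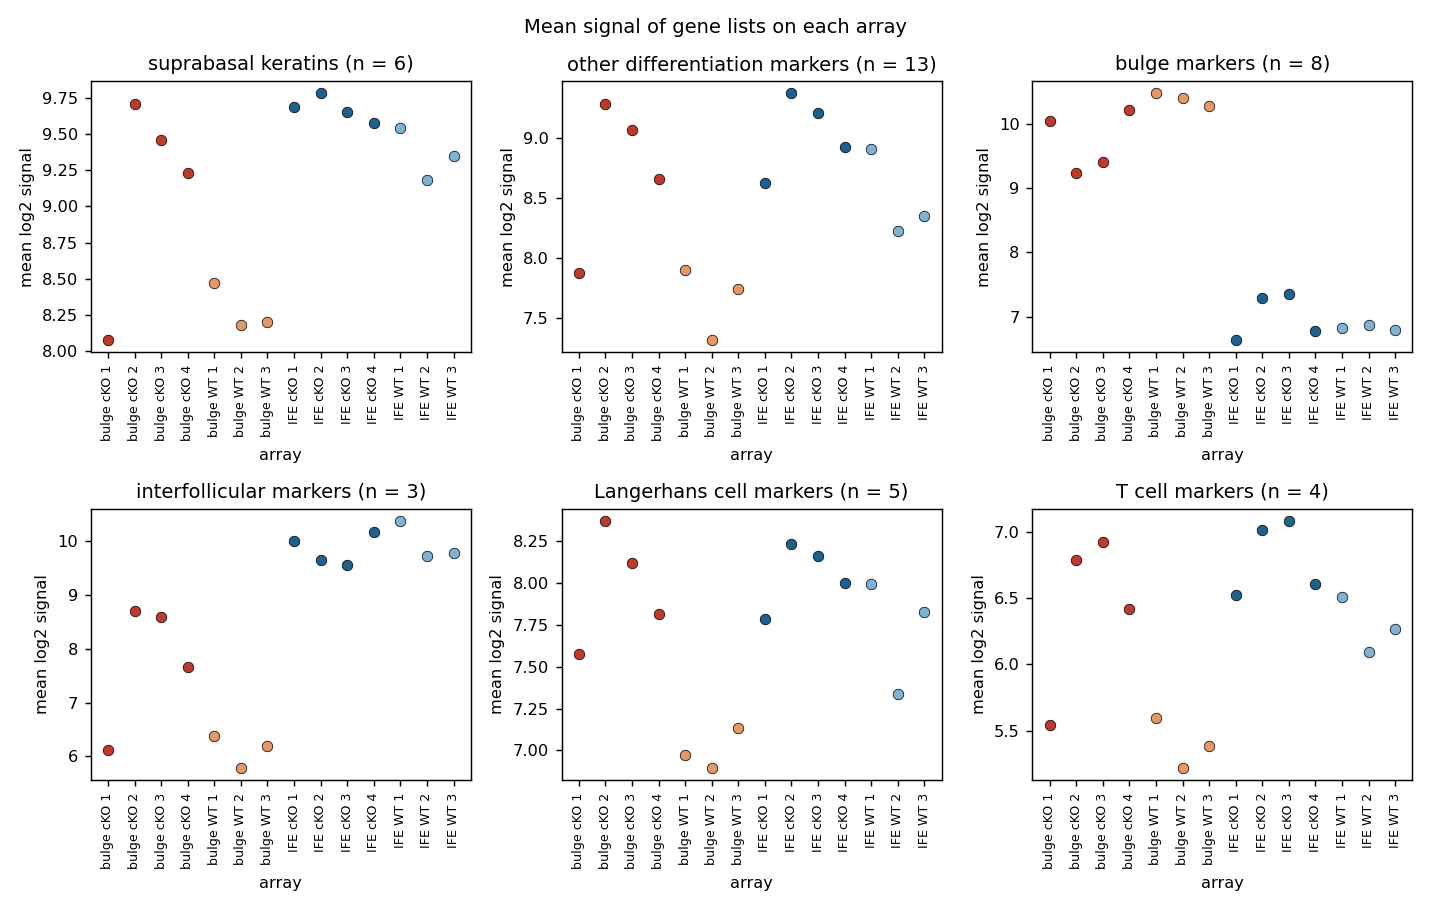
Mean log2 signal of 6 gene lists on each array (red and orange: bulge cKO and WT; dark and light blue: IFE cKO and WT). Over the bulge cKO arrays the suprabasal keratins, other differentiation markers, interfollicular markers and T cell markers are at or just below the WT level in replicate 1 and high in replicates 2, 3 and 4, and the bulge markers are lowest in replicates 2 and 3. The Langerhans cell markers are above every bulge WT array on each bulge cKO array, replicate 1 included. Dsg1a is in both the differentiation and the interfollicular list.

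Genes that act on keratins were followed from lists of their own. Over all genes, 1.98% rose, 1.85% fell and 25.7% had an unadjusted p under 0.05 in bulge cKO cells. Of 18 keratin gene regulators, 2 rose in bulge cKO cells and 0 fell: Klf5, a Krüppel-like factor of basal keratinocytes, by 1.09 (adjusted p = 0.0104), and Ovol1, a zinc finger repressor active as cells leave the basal layer, by 1.18 (adjusted p = 0.0462). Klf5 read 8.40, 9.01, 8.86 and 8.54 in bulge cKO cells and 7.29, 7.74 and 7.81 in bulge WT cells, with every cKO array, replicate 1 included, above every WT array. Of 9 proteins that anchor keratin filaments at desmosomes and hemidesmosomes or bind them, 1 rose, Eppk1 or epiplakin, by 0.80 (adjusted p = 0.0324). Of 13 differentiation markers, 2 rose: Casp14, the caspase of cornifying cells, by 2.32 (adjusted p = 0.0373), and Sprr1a, a cornified envelope precursor, by 1.53 (adjusted p = 0.0373). Of 6 filament bundling and cornified layer proteins 0 passed in limma and 2 had an unadjusted p under 0.05. No member of the bulge, interfollicular, T cell, melanocyte, fibroblast, Merkel cell or sebaceous lists passed. Among the markers of other cells, 3 of 5 Langerhans cell markers rose (H2-Ab1 by 2.35, H2-Eb1 by 0.97 and Cd74 by 0.87), while Cd207, the defining langerin gene, read 5.21 to 6.04 in bulge cKO and 4.99 to 5.25 in bulge WT cells and did not pass.

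In IFE cells, 0 of 41 keratins passed between cKO and WT in limma, where 0.497% of all genes did, and 4 had an unadjusted p under 0.05 (11% of all genes). Non-overlapping groups were found for 4 keratins that were higher in cKO cells (Krt15, Krt2, Krt77 and Krt80, against 5.01% of all genes) and 2 that were lower (Krt86 and Krt18, against 5.97%). Krt1 read 12.55, 12.19, 12.06 and 12.38 in IFE cKO replicates 1 to 4 and 12.37, 11.84 and 12.03 in IFE WT replicates 1 to 3, a difference of 0.22 with an interval of −0.81 to 1.24. Krt10 read 11.95, 11.67, 11.53 and 11.79 in IFE cKO cells and 11.92, 11.50 and 11.56 in IFE WT cells, a difference of 0.08. The arrays of both genes overlapped. Krt1 in IFE cells, at 11.84 to 12.55, was read near the top of the range (highest value of any gene 12.97). Its small difference therefore does not show that levels were alike. Krt77 read 11.86, 11.82, 11.51 and 11.62 in IFE cKO cells and 11.39, 10.91 and 11.16 in IFE WT cells, and its difference of 0.55 had an adjusted p of 0.797. Krt80, a type II keratin widespread in epithelia, had the smallest p of the keratins, with a difference of 0.45 (SE 0.13, adjusted p = 0.199).

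The basal and stress keratins of the IFE did not pass either. Krt15 read 11.35, 11.33, 11.35 and 11.29 in IFE cKO cells and 10.95, 11.22 and 10.94 in IFE WT cells. Every cKO array was above every WT array, and the difference of 0.29 had an adjusted p of 0.293. Krt5 read 12.65, 12.60, 12.60 and 12.52 in IFE cKO cells and 12.58, 12.61 and 12.57 in IFE WT cells, a difference of 0.01 with an interval of −0.08 to 0.09. Krt14 read 12.43, 12.32, 12.40 and 12.57 in IFE cKO cells and 12.53, 12.51 and 12.43 in IFE WT cells, a difference of −0.06 with an interval of −0.24 to 0.11. The groups of both overlapped, on probe sets near the top of the range, so a small difference does not show that levels were alike. Krt16 read 10.34, 10.59, 10.70 and 11.17 in IFE cKO cells and 11.48, 10.96 and 10.63 in IFE WT cells. Krt6b read 9.70, 10.36, 10.37 and 11.50 in IFE cKO cells and 11.52, 10.72 and 9.25 in IFE WT cells. Krt6a read 10.63, 10.96, 11.49 and 11.75 in IFE cKO cells and 11.99, 11.79 and 11.02 in IFE WT cells. The groups of each of these 3 stress keratins overlapped, and the differences were −0.32 for Krt16, −0.01 for Krt6b and −0.40 for Krt6a. Krt79 read 9.63, 10.18, 9.98 and 9.55 in IFE cKO cells and 9.82, 8.70 and 9.09 in IFE WT cells, also with overlap. Over the 12 other lists, 0 of 83 genes passed in limma in the IFE and 8 had an unadjusted p under 0.05.

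The 3 keratins called in the bulge had overlapping groups in the IFE. Krt26 read 4.45, 4.63, 4.49 and 4.40 in IFE cKO and 4.44, 4.51 and 4.53 in IFE WT cells, with a 95% interval of the difference of −0.17 to 0.17. Krt20 read 5.12, 5.30, 5.20 and 5.22 in IFE cKO and 5.25, 5.21 and 5.27 in IFE WT cells, and Krt31 read 5.71, 5.74, 5.70 and 5.72 in IFE cKO and 5.75, 5.67 and 5.76 in IFE WT cells. The difference between the bulge and IFE effects was tested itself. It passed for 0 of 41 keratins in limma (0.105% of all genes), and 8 had an unadjusted p under 0.05 (14.1% of all genes). The 8 were Krt15, Krt26, Krt20, Krt16, Krt31, Krt18, Krt12 and Krt33a. The effect on Krt16 was 1.57 higher in the bulge (SE 0.49, adjusted p = 0.225), that on Krt1 1.28 higher (adjusted p = 0.403), and for Krt15 the bulge effect minus the IFE effect was −0.48 (adjusted p = 0.212). The IFE signals of Krt1 lay near the top of the range, which limits the comparison of its effects. Of the 83 genes of the other lists, 0 passed in this test and 19 had an unadjusted p under 0.05. Without bulge cKO replicate 1, the difference of effects passed for 2 keratins, Krt1 and Krt10 (0.146% of all genes), and 1 keratin, Krt80, passed in the IFE (0.491%).

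Between compartments without any loss of G9a, 12 of 41 keratins (29.3%) passed in bulge WT against IFE WT cells, and 35.1% of all genes did. The order of these shares turned with the scaling: 19 keratins (46.3%) and 37.6% of all genes passed after centring each array on its median, and 20 (48.8%) and 38% with cyclic loess. The difference between the shares was not tested. Of these, 6 were higher in the bulge (18.4% of all genes were): Krt75 by 2.67, Krt15 by 1.11, Krt71 by 0.77, Krt26 by 0.69, Krt42 by 0.44 and Krt25 by 0.24. The other 6 were lower (16.6% of all genes were): Krt6b by −3.27, Krt1 by −2.50, Krt16 by −2.35, Krt77 by −1.92, Krt10 by −1.74 and Krt79 by −1.52. The call was lost in 8 of 24 other settings for Krt6b and in 3 each for Krt25, Krt77 and Krt79. Non-overlapping groups were found for 24 of 41 keratins (47.4% of all genes). The median difference was −0.05 over the keratins and −0.01 over all genes. The bulge WT arrays also serve the cKO comparison in the bulge, so the differences of the 2 comparisons are not independent of each other.

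By role, the higher keratins were the basal and bulge keratin Krt15, 4 of 7 follicle keratins, and Krt42, which is outside any class. Another follicle keratin, Krt79, passed in the other direction (−1.52). Krt75 read 8.27, 7.39 and 7.83 in bulge WT cells and 4.99, 5.51 and 4.996 in IFE WT cells, where it lay below the median of all values. The difference was 2.67 (SE 0.28). It read 5.24, 5.66, 5.62 and 4.96 in IFE cKO cells. Krt71, Krt25 and Krt26, all of the inner root sheath, were higher in the bulge together, while Krt27 and Krt73 of the same class did not pass (0.13 and −0.05). Krt42, a type I keratin next to Krt17 on chromosome 11, read 9.16, 9.14 and 9.12 in bulge WT and 8.63, 8.67 and 8.79 in IFE WT cells on a probe set whose probes may be shared with related genes. The pair Krt5 and Krt14 did not pass, with differences of 0.09 (adjusted p = 0.122) and −0.20 (adjusted p = 0.0908), although neither gene's groups overlapped. Krt6a, on 3 probe sets, differed by 0.24, 0.30 and 0.19, none of which passed, while its relative Krt6b differed by −3.27 (SE 1.15, adjusted p = 0.0434).

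The suprabasal keratins lower in bulge WT cells were Krt1, Krt10 and Krt77. Krt1 was at 9.41 to 9.87 in bulge WT and 11.84 to 12.37 in IFE WT cells, Krt10 at 9.67 to 10.18 in bulge WT and 11.50 to 11.92 in IFE WT cells, and Krt77 at 8.99 to 9.57 in bulge WT and 10.91 to 11.39 in IFE WT cells. In each the lowest IFE WT array was more than 1 unit above the highest bulge WT array. Signals for all 3 in bulge WT cells were nevertheless well above the array medians. Krt2, Krt78 and Krt80, the other suprabasal members, differed by −0.26, −0.33 and 0.32 and did not pass. Krtdap, which is expressed as keratinocytes differentiate, was lower by −2.33 (adjusted p = 0.00247). Of the 18 keratin gene regulators, 5 were higher in the bulge and 11 lower, against 18.4% and 16.6% of all genes. The 4 with the smallest p were Sox9, a factor of follicle stem cells, at 2.40, Klf5 at −2.38, Hoxc13, a factor of hair keratin genes, at 1.77, and Ovol1 at −2.56. Of the 10 hair keratins 0 passed in limma between the compartments (Krt31, Krt33a and Krt33b passed after centring on the median and with cyclic loess), and 3 had an unadjusted p under 0.05; over all keratins 23 did (43.7% of all genes). All 8 bulge markers were higher in bulge WT cells and all 3 interfollicular markers lower. Keratin anchors gave 1 higher and 4 lower of 9, bundling and cornified layer proteins 0 and 2 of 6, and other differentiation markers 1 and 5 of 13, against the same 18.4% higher and 16.6% lower over all genes. Lower in bulge WT cells were also 4 of 5 Langerhans cell markers, 1 of 4 T cell markers (Thy1), 1 of 5 melanocyte markers (Mlana) and 1 of 4 sebaceous markers (Fasn), and 0 of 5 fibroblast and 0 of 5 Merkel cell markers passed in either direction.

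**Figure D5:**
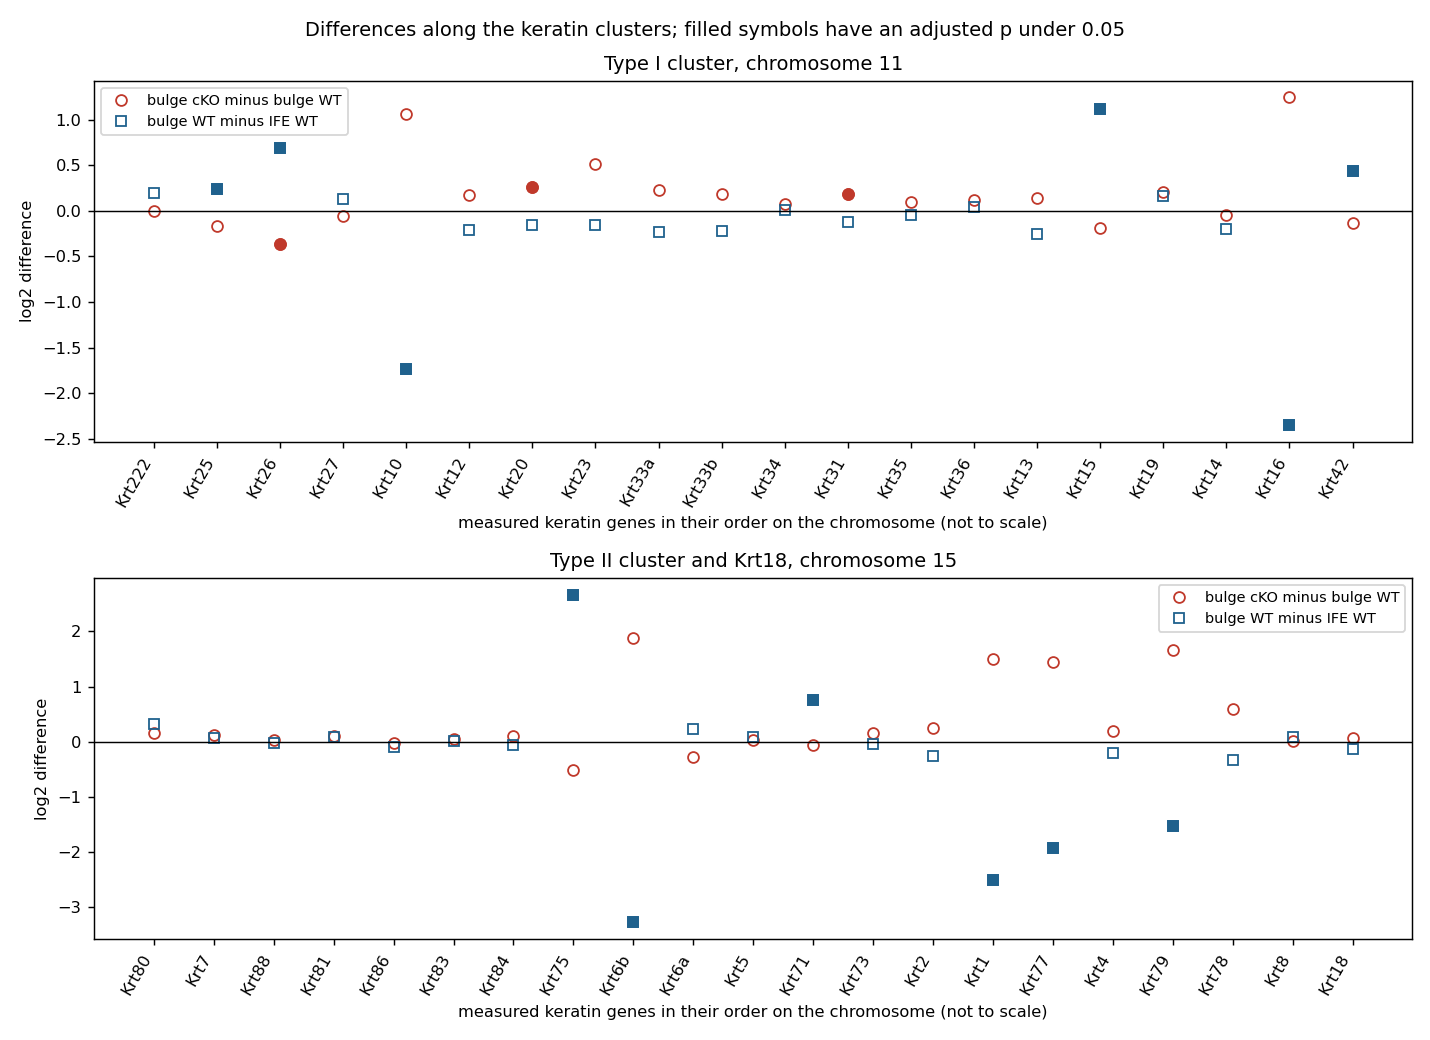
Log2 differences of the measured keratin genes in their order on chromosomes 11 and 15, without scale, for bulge cKO minus bulge WT (circles) and bulge WT minus IFE WT (squares), which share the bulge WT arrays; filled symbols passed. For bulge cKO minus bulge WT, Krt10 sits between Krt27 and Krt12, both near 0, and the neighbours Krt1 and Krt77 are both high; for bulge WT minus IFE WT, the neighbours Krt75 and Krt6b lie far from 0 in opposite directions.

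The differences were also read in gene order. In bulge cKO against bulge WT cells, the type I gene Krt10 (1.06) had Krt27 (−0.06) and Krt12 (0.17) as its nearest measured neighbours, and Krt16 (1.24) lay between Krt14 (−0.05) and Krt42 (−0.13) among the measured genes. In the type II cluster Krt6b (1.88) lay between Krt75 (−0.50) and Krt6a (−0.27). Krt1 (1.50) and Krt77 (1.44) were neighbours, with Krt2 (0.25) before them and Krt4 (0.19), Krt79 (1.66) and Krt78 (0.59) after them. In bulge WT against IFE WT cells the neighbours Krt75 (2.67) and Krt6b (−3.27) had the largest keratin differences in either direction, and both passed. The inner root sheath genes Krt25, Krt26 and Krt27 were consecutive among the measured genes. They were at −0.17, −0.36 and −0.06 in bulge cKO against bulge WT cells, and at 0.24, 0.69 and 0.13 in bulge WT against IFE WT cells.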

How the data were processed

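RNA extracted with TRizol, amplified with WTA2 and labelled with biotin was hybridised to Affymetrix arrays, per the labels' protocols. The authors deposited 1 log2 signal for each probe set and array, computed with RMA per the submitters' processing notes, which name no version. All per-sample columns were matched to the 14 arrays. Of 45141 probe sets, 28898 had 1 gene symbol in the platform annotation, 551 had several and 15692 had none; the last 2 kinds were not used. Each of 17097 genes was represented by its probe set with the highest mean over all arrays, which decided among several for 7 keratins. Probe sets named x_at, s_at or a_at (here those of Krt14, Krt8, Krt4, Krt13, Krt42, Krt12, Krt10, Krt36 and Krt7) can share probes between related genes or transcripts.

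All arrays entered 1 limma model (limma 3.58.1, R 4.3.3) with a mean per group and 10 residual degrees of freedom, with 4 contrasts. Tests were two-sided, adjusted by Benjamini-Hochberg over all genes, with a threshold of 0.05. The model was tested on simulated data. Standard errors and 95% intervals are limma's. Each p-value sets a difference against the spread between arrays, pooled over the 4 groups. A wide spread in bulge cKO cells thus also enters the other contrasts. For Krt1 the SD was 1.18 in bulge cKO cells and 0.21 to 0.27 in the other groups. Nothing says that the arrays came from separate animals, so this may not be the spread between animals, and the number of arrays limits precision. Between arrays of different groups with the same replicate number, correlations of deviations from the group means ran from −0.62 to 0.25. Arrays with different numbers were not compared, so whether the numbers pair the samples was not settled.

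Named with values on every array were keratins that passed in a cKO comparison, the 8 largest that passed between compartments, and Krt5, Krt14, Krt15, Krt1, Krt10, Krt6a and Krt16; the others are given by class. Of 51 keratins listed in classes, 38 were measured, and 12 other lists were followed. Members, classes and lists were chosen with earlier results of these data known. Alternatives changed the scaling, the filter on dim probe sets, the probe set per gene, the variance model, array weights, the arrays in the fit, the replicate block and the threshold.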

Additional observations from a re-analysis of the deposited data

Results flagged for a closer look

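Within the 4 arrays of a cKO group, 7 of 82 keratin and group pairs had 1 array far from the other 3. The rule flags about 1 in 20 when values are normal. The pairs share arrays, and the share flagged over all genes is not given here, so the count does not set keratins apart. All 7 were in bulge cKO cells. Replicate 1 was the low array for Krt10 (9.50, the others at 11.28 to 11.63), for Krt6b (5.73, the others at 10.18 to 10.31) and for Krt14 (12.03, the others at 12.30 to 12.33). It was the high array for Krt42 (9.20, the others at 8.92 to 8.96). Replicate 2 was the high array for Krt18 (5.37) and Krt88 (6.45), and replicate 4 the low one for Krt81 (6.11). A probe set of Krt13 that was not the one representing the gene was lower in bulge cKO than in bulge WT cells, at −0.18 (limma, adjusted p = 0.0397), while the other 2 probe sets of Krt13 gave 0.14 and −0.08 and did not pass.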

How the results depend on the processing

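No result reversed, and 7 of 21 named differences kept their direction and side of the threshold in all 24 settings tried; that of Krt26 between compartments did so in the 23 that kept its dim probe set. The count of keratins called in bulge cKO against bulge WT cells (3) was 1 after centring each array on its median, 1 without dim probe sets (Krt79, not among the 3), 1 with the probe set of largest interquartile range, 2 with cyclic loess, 3 with trend and robust fitting (Krt79 in place of Krt31), 4 when probe sets were averaged per gene (the 3 and Krt79), 0 with only the groups compared, 0 with the replicate block, 6 at an adjusted p under 0.1, 0 with a log2 difference of at least 1, 1 without bulge cKO replicates 2 and 3, and 0 to 8 without single arrays. Array weights gave 24 calls there, 4 in IFE cKO against IFE WT (0), 21 in the difference of effects (0) and 21 in bulge WT against IFE WT (12). In that fit bulge cKO replicate 3 had a weight of 15.5 against 0.28 to 3.46 for the others, so a single array dominated its group. Over all genes in bulge cKO against bulge WT cells, 234 rose and 330 fell after centring, and 326 and 290 with cyclic loess. Shares of all genes are not given here for array weights, the other fits and probe set choices, or an adjusted p under 0.1. The keratin counts in those settings cannot be read as particular to keratins. Leaving out single arrays gave 0 to 1 calls in the IFE, 0 to 2 in the difference of effects and 8 to 17 between compartments. Shares of all genes are given here for only some single-array fits, and for none between compartments. Those counts cannot be read as particular to keratins either. Between compartments the 12 calls became 19 after centring on the median (6 higher and 13 lower, the 12 included; 2730 and 3695 over all genes, against 3152 and 2846), 20 with cyclic loess (7 higher and 13 lower, the 12 included) and 22 at an adjusted p under 0.1. The replicate block left 11 of these calls. The cause of these changes was not tested. With 3 or 4 arrays a group, and 14 keratins below the median of all values on every array, small differences of dim keratins were at the limit of what could be resolved.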
